A study of Oryza sativa with 12 samples.

Results

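Roots of rice (Oryza sativa, wild type) given spermidine and NaCl together were compared with untreated roots, to describe which transcripts still differed from the untreated level when salted roots also received spermidine. The comparison used 6 of the 12 libraries: 3 of roots held for 72 hours with 0.1 mM spermidine plus 100 mM NaCl, and 3 of untreated roots. The other 6 libraries, 3 with 100 mM NaCl alone and 3 with 0.1 mM spermidine alone, also for 72 hours, give the side values below and share the same untreated libraries. No time is labelled for the untreated roots, so time and treatment cannot be told apart. Nothing in the labels says that libraries of a group came from separate plants or cultures, and the p-values therefore cover the spread between these libraries, part or all of which may be technical. Each library was sequenced from poly-A RNA of whole roots, and no sodium content, growth or cell number was measured.

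Values are FPKM, a read density per length of transcript that is scaled to library size. Each belongs to a unigene, a cluster of transcripts put together from the reads themselves. The members were the unigenes whose best protein hit is from Oryza, 68051 of the 182689 in the table. Of these, 41491 had a mean of at least 1 FPKM over the 12 libraries and were tested, and 26560 were below it and were not. Gene names are those of the best protein hit in Swiss-Prot, often from another species, so a name gives a family and a likely role rather than a proven function in rice. A gene can be split over several unigenes, and where near-identical unigenes share reads their single values are uncertain, above all in large families such as expansins and peroxidases.

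Spermidine belongs to the polyamines, small molecules with several positive charges that plants make from arginine or ornithine by way of putrescine and break down with amine oxidases. Salt draws water out of roots and lets sodium in, and plants are known to answer with abscisic acid signalling, stress transcription factors, osmolytes such as proline, transporters driven by proton pumps, and barriers of lignin and suberin in the root wall. Expansins, aquaporins and wall-modifying enzymes set how far root cells can take up water and elongate.

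Library depth is unknown, because FPKM keeps no read counts, and low values gave relative depths of 0.922 to 1.09 across the 12 libraries. Libraries of the same group correlated on the log2 scale at 0.927 to 0.954 with spermidine+NaCl and 0.95 to 0.953 in untreated roots. Replicate 1 with spermidine+NaCl stood apart from the other two of its group. On the first principal component (48.2% of the variance) it lay at 17.7 and its partners at -45.7 and -36.4, while the untreated libraries lay between -65.1 and -57.8 and those with NaCl alone between 116.9 and 134.8. On the second (9.42%) the libraries with spermidine+NaCl, at -70.2 to -27.0, lay below the untreated ones, at 10.6 to 30.3. Rice hits held 76.5% to 79.2% of the FPKM with spermidine+NaCl and 73.8% to 78.2% in untreated roots. Of the unigenes outside the members, limma called 3.87% higher and 8.58% lower among those with a hit in another organism, and 1.12% and 3.25% among those with no hit. Markers of shoot tissue were low in all 6 libraries, summing to 52.2 to 64.7 FPKM over 29 unigenes with spermidine+NaCl and to 58.5 to 66.7 FPKM in untreated roots, and 1 of them was called.

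**Figure D1:**
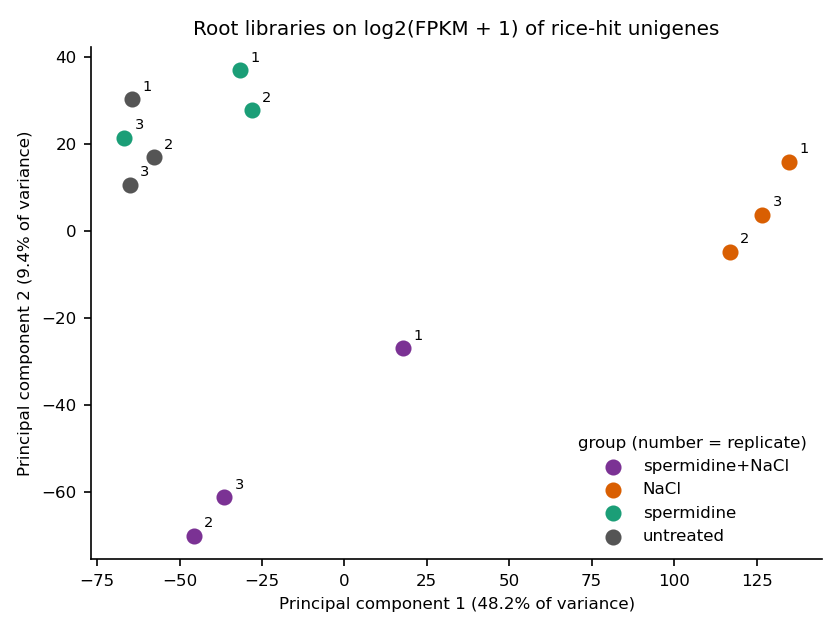
Each point is a library placed on the first 2 principal components of log2(FPKM + 1) over rice-hit unigenes, coloured by group. The untreated libraries and those with spermidine+NaCl separate on the second component, and replicate 1 with spermidine+NaCl lies at 17.7 on the first, toward the NaCl libraries.

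Most rice-hit unigenes were not called different from untreated roots when salt was given with spermidine. limma on log2(FPKM + 1), with Benjamini-Hochberg adjustment over all unigenes tested and calls at an adjusted p below 0.05, called 1883 of 41491 (4.54%), of which 1095 were higher (2.64%) and 788 lower (1.90%), while 7456 had an unadjusted p below 0.05. The same fit called 5157 higher (12.4%) and 6089 lower (14.7%) with NaCl alone, and 122 (0.294%), 59 higher (0.142%) and 63 lower (0.152%), with spermidine alone, each against the same untreated libraries. The unigenes called higher had a median log2 change of 0.79 with spermidine+NaCl, 0.66 with NaCl alone and 0.11 with spermidine alone. Those called lower had medians of -0.83, -1.09 and -0.13 in the same order. Both sets were selected by the spermidine+NaCl comparison, and all of these changes share the untreated libraries, so these medians are descriptions. Over all rice-hit unigenes tested the medians were 0.03, -0.12 and -0.01. Log2 changes here are on the log2(FPKM + 1) scale, which understates the change of low unigenes.

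The changes were moderate in size. A log2 change of at least 1 was seen in 389 of the unigenes called higher and 261 of those called lower, and of at least 2 in 65 and 29. In every called unigene the 3 libraries with spermidine+NaCl lay entirely above or below the 3 untreated ones, as did 9954 of all 41491 (24.0%). Leaving out replicate 1 with spermidine+NaCl, the library that stood apart, gave 979 higher and 763 lower. Leaving out replicate 2 of that group gave 418 and 353, replicate 3 gave 588 and 496, untreated replicate 1 gave 485 and 347, untreated replicate 2 gave 632 and 445, and untreated replicate 3 gave 803 and 500. A fit of the 6 libraries alone, with fewer libraries to estimate the spread, gave 314 and 248. Each call said below to be lost with a library left out was also lost in that fit (adjusted p 0.056 to 0.235), apart from that of Expansin-A30 (0.0495).

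**Figure D2:**
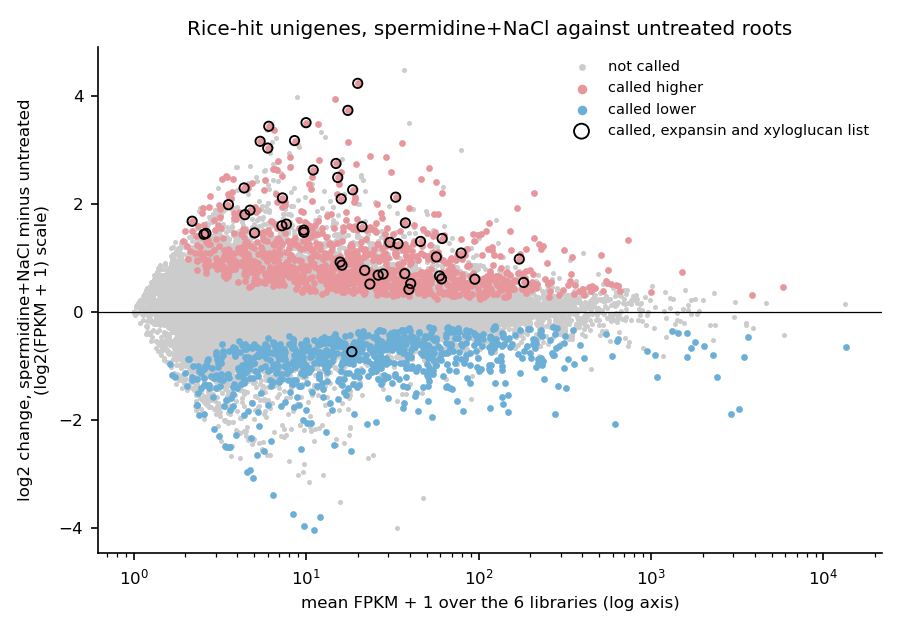
Each point is a rice-hit unigene, with its mean FPKM + 1 over the 6 libraries on the x axis (log axis) and its change on the log2(FPKM + 1) scale, spermidine+NaCl minus untreated, on the y axis. Called unigenes are coloured, 1095 above 0 and 788 below it, and rings mark the 48 higher and 1 lower of the expansin and xyloglucan list.

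Regulators that were high with NaCl alone were near the untreated level in replicates 2 and 3 with spermidine+NaCl and above it in replicate 1. These unigenes were chosen after their values were seen. ERF109, an ethylene-response transcription factor, had 114, 0.92 and 2.36 FPKM with spermidine+NaCl, against 0.22, 1.47 and 0.24 FPKM in untreated roots, while NaCl alone averaged 1289 ± 316 FPKM (SD, n = 3, as for all means below). WRKY71, of a family that acts in stress and defence, had 66.0, 4.2 and 4.29 FPKM with spermidine+NaCl, against 3.15, 3.54 and 4.74 FPKM in untreated roots. bHLH35 had 11.1, 1.07 and 1.72 FPKM with spermidine+NaCl, against 1.07, 1.15 and 1.14 FPKM in untreated roots. In all 3, a single library of the treated group was high, the difference from untreated roots was not called (adjusted p = 0.392, 0.531 and 0.597), and NaCl alone gave 801 ± 65.3 FPKM for WRKY71 and 612 ± 102 FPKM for bHLH35.

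Enzymes of stress signalling showed the same order with a smaller gap between replicates. Lipoxygenase 5, of the family that starts jasmonate synthesis, had 9.84, 6.33 and 6.31 FPKM with spermidine+NaCl, against 4.90, 6.25 and 3.82 FPKM in untreated roots (adjusted p = 0.311), and 259 ± 39.7 FPKM with NaCl alone. Trehalose-phosphate phosphatase 1, which makes the sugar trehalose, had 11.3, 4.58 and 5.80 FPKM with spermidine+NaCl, against 5.22, 6.32 and 5.91 FPKM in untreated roots (adjusted p = 0.775). NCED4, of the enzyme family that commits carotenoids to abscisic acid, had 1.08, 0.14 and 0.14 FPKM with spermidine+NaCl, while untreated replicate 2 had 0.15 FPKM and the other two were listed at 0. Its mean with NaCl alone was 23.3 ± 5.43 FPKM.

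**Figure D3:**
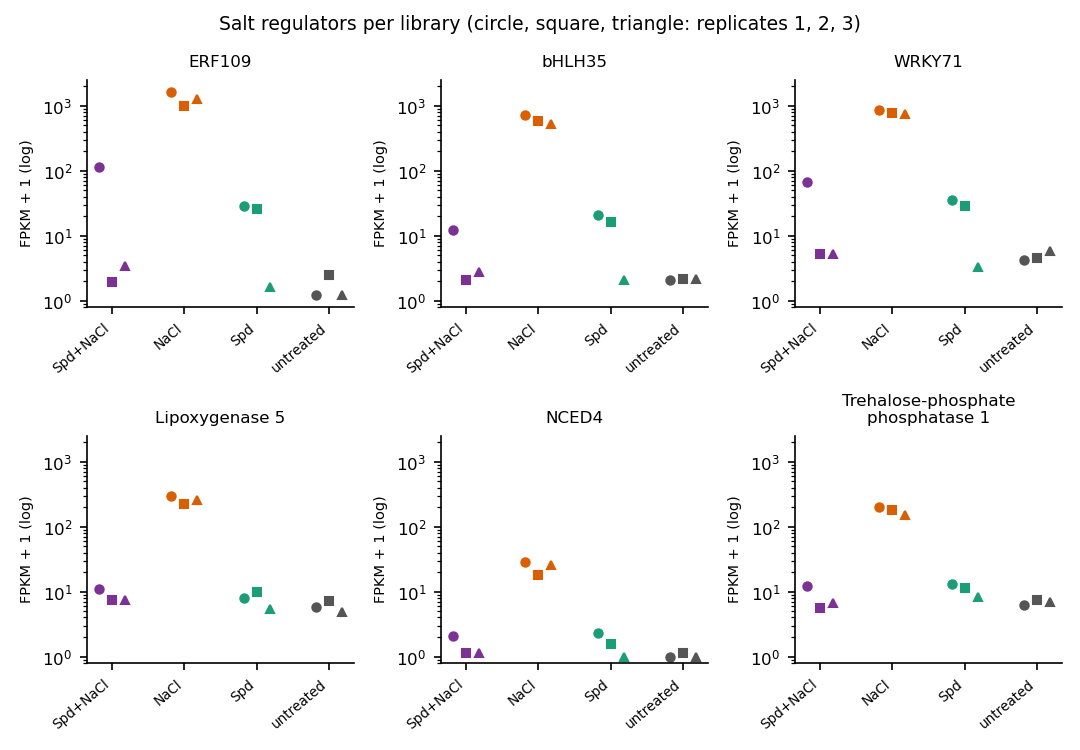
FPKM + 1 of 6 salt-induced unigenes in each library (circle, square and triangle for replicates 1, 2 and 3) with spermidine+NaCl, with NaCl alone, with spermidine alone (Spd) and in untreated roots, on a log axis. Replicates 2 and 3 with spermidine+NaCl lie near the untreated libraries, and replicate 1 lies above them for ERF109, WRKY71 and bHLH35.

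The families of these regulators held few calls. Of 22 DREB factors, which act in cold and drought responses, 0 were called higher and 0 lower with spermidine+NaCl, against 17 and 2 with NaCl alone. Their median log2 change was 0.67, but 0.0098 without replicate 1 of spermidine+NaCl and 0.0098 to 1.61 over all omissions of a single library. Of 153 WRKY factors, 5 were higher and 1 lower, against 80 and 14 with NaCl alone. Of 85 jasmonate unigenes, 3 were higher and 1 lower, against 40 and 12, and of 358 calcium sensors and MAP kinases 7 and 4, against 110 and 32. Germin-like proteins, secreted proteins of stress and defence, had 0 higher and 0 lower of 49, against 26 and 1. NAC factors had 2 and 2 of 150, against 41 and 27. These shares with spermidine+NaCl are near the background of 2.64% higher and 1.90% lower. With NaCl alone the background was 12.4% higher and 14.7% lower.

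Several lists of the cell wall held many of the calls. The 36 lists, defined by words in the protein descriptions, held 5435 of the tested unigenes and 471 of the 1883 called, and a further 449 called unigenes had no informative description. Expansins and xyloglucan enzymes had 48 higher and 1 lower of 161, suberin and Casparian strip genes 28 and 1 of 140, proton pumps 12 and 0 of 64, aquaporins 13 and 3 of 77, lignin and phenylpropanoid genes 33 and 6 of 222, and class III peroxidases 43 and 12 of 306. The cytokinin list had 0 higher and 11 lower of 88. Members of a list are not independent, and the lists were made with results of these data known. Over all rice-hit unigenes tested, 2.64% were called higher and 1.90% lower, the background for the counts here and below.

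**Figure D4:**
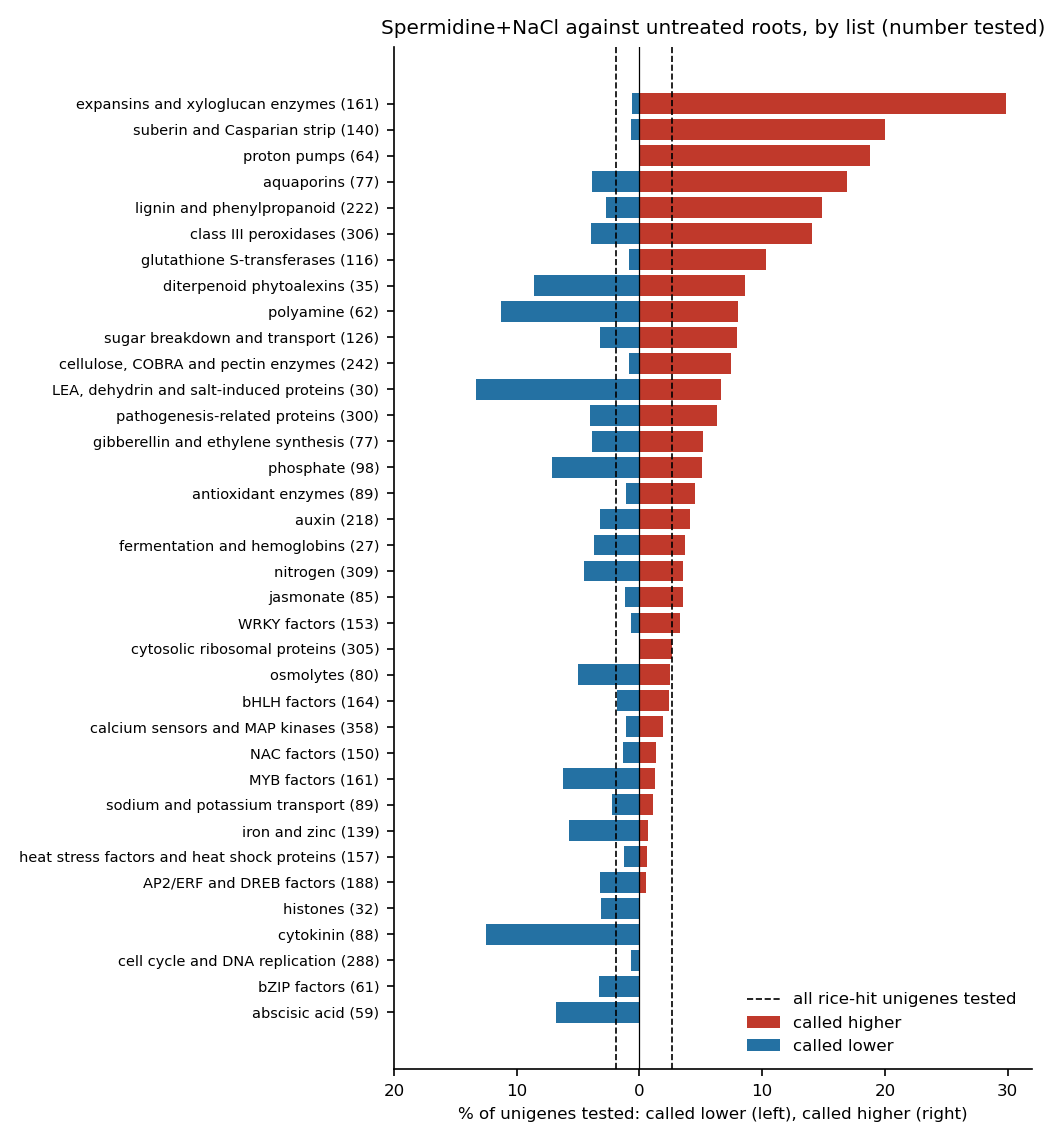
Number of unigenes called higher (to the right of 0) and lower (to the left of 0) with spermidine+NaCl than in untreated roots, as a percentage of the tested members of each list. Numbers tested are in brackets, dashed lines mark the shares over all rice-hit unigenes (2.64% higher, 1.90% lower), and the expansin list has the longest bar of those called higher.

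Expansins loosen the cell wall so that cells can elongate, and the alpha-expansins carried most of the rise. Of 77 alpha-expansin unigenes, 35 rose and 0 fell, with a median log2 change of 0.96 with spermidine+NaCl, 0.86 with NaCl alone and 0.02 with spermidine alone. Expansin-A19 had 26.7, 43.2 and 23.7 FPKM with spermidine+NaCl, against 0.77, 0.42 and 4.09 FPKM in untreated roots. All treated libraries were above all untreated ones, with a log2 change of 3.74 ± 0.41 (SE; adjusted p = 0.00195, but 0.0527 when only the 6 libraries were fitted). Its mean was 40.1 ± 7.92 FPKM with NaCl alone and 7.29 ± 0.55 with spermidine alone. Expansin-A31 (Os03g0428700) had 29.4, 46.3 and 31.9 FPKM with spermidine+NaCl, against 6.05 FPKM in untreated replicate 2 and 0 listed in the other two (adjusted p = 0.0114). Its call was lost without replicate 2 of spermidine+NaCl (adjusted p = 0.0551) and without untreated replicate 1 (0.0559). Expansin-A30, known from root hairs, had 22.4, 40.9 and 29.3 FPKM with spermidine+NaCl, against 10.2, 9.56 and 8.40 FPKM in untreated roots (log2 change 1.58 ± 0.34, adjusted p = 0.0249), a call kept only without replicate 1 of spermidine+NaCl among the 6 omissions (adjusted p up to 0.102). It was the 1 called of 14 root hair markers, whose summed level was 204 to 272 FPKM with spermidine+NaCl and 191 to 215 FPKM in untreated roots.

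Other wall-loosening genes gave smaller counts. Beta-expansins had 8 higher and 1 lower of 30, against 7 and 10 with NaCl alone, and 3 higher without replicate 2 of spermidine+NaCl or untreated replicate 1 and 5 without untreated replicate 2. The lower one, Expansin-B5, had 10.9, 12.9 and 14.8 FPKM with spermidine+NaCl, against 23.8, 19.8 and 22.5 FPKM in untreated roots (log2 change -0.74 ± 0.13, adjusted p = 0.0105, but 0.0743 when only the 6 libraries were fitted). Xyloglucan endotransglucosylases, which cut and rejoin the hemicellulose between cellulose fibres, had 5 higher and 0 lower of 47, and 3 to 6 higher without any single library. Cellulose, COBRA and pectin enzymes had 18 higher and 2 lower of 242, and 2 higher without replicate 2 and 6 without replicate 3 of spermidine+NaCl, 3 without untreated replicate 1 and 8 without untreated replicate 2. In this list, polygalacturonase inhibitor 1, which blocks pectin-degrading enzymes, had 29.0, 17.4 and 16.6 FPKM with spermidine+NaCl, against 73.8, 51.3 and 61.8 FPKM in untreated roots (log2 change -1.55 ± 0.23, adjusted p = 0.00659, but 0.0657 when only the 6 libraries were fitted).

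The number of expansin calls depended on the libraries, and no direction did. With each library left out in turn, the whole list of expansins and xyloglucan enzymes had 44 higher without replicate 1 of spermidine+NaCl, 23 without replicate 2 and 27 without replicate 3. It had 25, 29 and 42 higher without untreated replicates 1, 2 and 3, and 1 or 2 lower throughout. The alpha-expansins alone had 17 to 30 higher and 0 lower. In the fit of the 6 libraries alone they had 13 higher and 0 lower.

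Suberin, a waxy polyester that limits the passage of water and ions through root walls, is built from long fatty acids that are elongated, hydroxylated and joined to ferulic acid. Genes described for each of these steps rose. The omega-hydroxypalmitate O-feruloyl transferase, which adds the ferulic acid, had 118, 122 and 98.9 FPKM with spermidine+NaCl, against 42.5, 47.5 and 40.9 FPKM in untreated roots. The groups were far apart, with a log2 change of 1.35 ± 0.12 (adjusted p = 0.000769), and the level was also above that with NaCl alone, 80.4 ± 8.26 FPKM (log2 difference 0.48, adjusted p = 0.0216; this comparison called 19.3% of rice-hit unigenes, 10.5% higher and 8.85% lower). This unigene was chosen after its values were seen. CYP86A1 (Os01g0854800), whose Arabidopsis homolog hydroxylates suberin fatty acids, had 58.6, 57.2 and 57.4 FPKM with spermidine+NaCl, against 38.8, 18.6 and 16.0 FPKM in untreated roots (adjusted p = 0.0456). Also chosen after its values were seen, this call was lost in 5 of the 6 fits with a library left out (adjusted p up to 0.148). 3-ketoacyl-CoA synthase 6, of the fatty acid elongating enzymes, had 16.6, 10.8 and 10.9 FPKM with spermidine+NaCl, against 0, 3 and 1.33 FPKM in untreated roots (log2 change 2.68 ± 0.50, adjusted p = 0.015, and 0.0549 without replicate 2 of spermidine+NaCl and 0.0502 without untreated replicate 1).

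By family, 3-ketoacyl-CoA synthases had 14 higher and 1 lower of 46, the cytochrome P450 86 family 5 and 0 of 17, the feruloyl transferases 2 and 0 of 5, and the CASP-like proteins, which include the scaffold of the Casparian strip, 2 and 0 of 50. With a library left out the synthases had 8 to 14 higher and the P450 family 1 to 4. Many ketoacyl synthases elongate fatty acids for waxes and membranes as well. The suberin and Casparian strip list had 12 higher without replicate 2 of spermidine+NaCl, 16 without untreated replicate 2 and 19 to 24 without any other single library, and 5 in the fit of the 6 libraries alone. Casparian strip membrane protein 1 had 148, 145 and 150 FPKM with spermidine+NaCl, against 112, 109 and 118 FPKM in untreated roots (adjusted p = 0.123). The 6 endodermis markers, of which 0 were called, summed to 223 to 234 FPKM with spermidine+NaCl and 170 to 191 FPKM in untreated roots. Whole roots were sequenced, so more cells of a type and more RNA per cell cannot be told apart.

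Lignin genes were called higher at several steps of the pathway. Phenylalanine ammonia-lyases, which open it, had 12 higher and 0 lower of 40 (5 to 8 higher without any single library) with a median log2 change of 0.66, against 34 and 1 and a median of 2.75 with NaCl alone. Cinnamoyl-CoA reductases, of a middle step, had 3 higher and 0 lower of 27. Laccases, which oxidise the monomers in the wall, had 8 higher and 1 lower of 57, and 5 to 7 higher without any single library. Laccase-3, chosen after its values were seen, had 31.2, 34.1 and 23.0 FPKM with spermidine+NaCl, against 7.39, 9.40 and 7.56 FPKM in untreated roots (log2 change 1.73 ± 0.15, adjusted p = 0.000699). Dirigent proteins, which guide the coupling of such monomers, went both ways, with 3 higher and 4 lower of 40. Dirigent protein 1 had 98.5, 78.4 and 86.04 FPKM with spermidine+NaCl, against 8.74, 14.3 and 16.9 FPKM in untreated roots (log2 change 2.67 ± 0.33, adjusted p = 0.00294), close to 92.0 ± 33.5 FPKM with NaCl alone. Dirigent protein 15 had 4.06, 8.07 and 12 FPKM with spermidine+NaCl, against 43.3, 33.9 and 28.4 FPKM in untreated roots (log2 change -2.08 ± 0.34, adjusted p = 0.00927, but 0.0827 when only the 6 libraries were fitted). The lignin and phenylpropanoid list as a whole had 21, 18 and 27 higher without replicates 1, 2 and 3 of spermidine+NaCl, 18, 21 and 19 without untreated replicates 1, 2 and 3, and 10 higher and 1 lower in the fit of the 6 libraries alone. The 9 xylem markers summed to 86.1 to 100.2 FPKM with spermidine+NaCl and 65.3 to 79.5 FPKM in untreated roots, 1 of them was called, and their part in this result was not tested.

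Class III peroxidases, wall enzymes that use hydrogen peroxide, also went both ways, with 43 higher and 12 lower of 306. Peroxidase 5 had 7.64, 8.21 and 15.9 FPKM with spermidine+NaCl, against 0, 1.48 and 1.30 FPKM in untreated roots (log2 change 2.63 ± 0.42, adjusted p = 0.00857, but 0.0803 when only the 6 libraries were fitted). Peroxidase 47 had 86.4, 63.9 and 61.1 FPKM with spermidine+NaCl, against 191, 159 and 177 FPKM in untreated roots (log2 change -1.32 ± 0.13, adjusted p = 0.00123). NaCl alone had it lower still, at 43.8 ± 3.49 FPKM (log2 difference of spermidine+NaCl from NaCl 0.66, adjusted p = 0.00623). Without single libraries the peroxidase list had 23 to 39 higher and 6 to 15 lower, with 23 higher without replicate 2 of spermidine+NaCl and 26 without untreated replicate 1, and 9 and 8 in the fit of the 6 libraries alone.

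**Figure D5:**
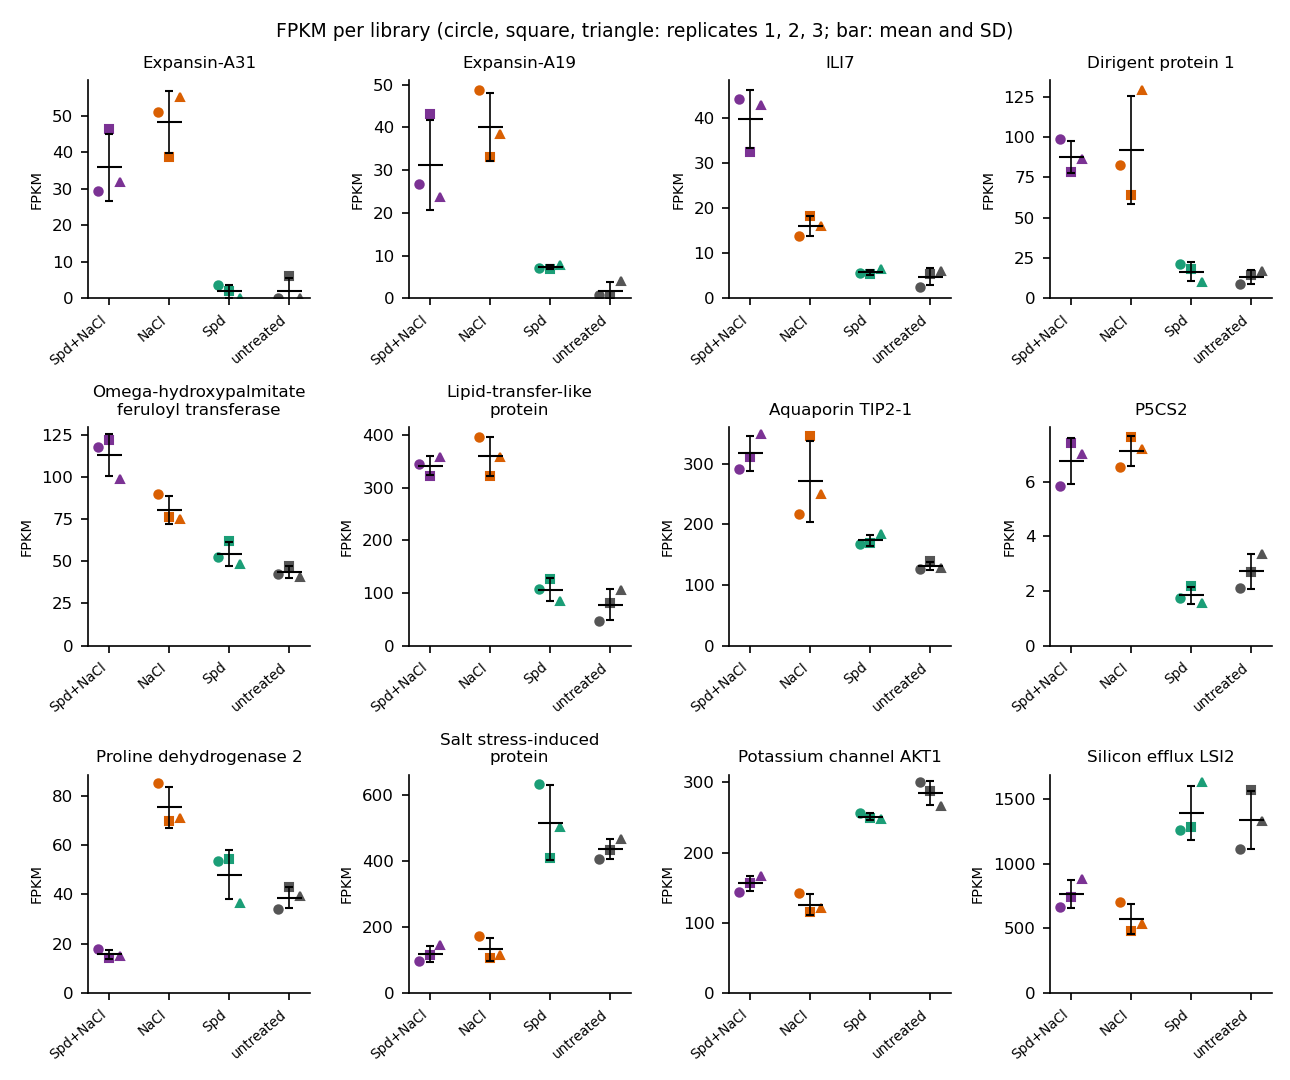
FPKM of 12 unigenes in each library (circle, square and triangle for replicates 1, 2 and 3) with spermidine+NaCl, with NaCl alone, with spermidine alone (Spd) and in untreated roots, on a linear axis from 0, with bars for the mean and SD. For the rises, such as Dirigent protein 1 and ILI7, the libraries with spermidine+NaCl lie above every untreated one, and for the falls, such as AKT1 and proline dehydrogenase 2, below.

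Proton pumps energise the membranes that sodium and water have to cross. Of 12 plasma membrane ATPases 4 rose and 0 fell, and of 34 V-type ATPase subunits, which acidify the vacuole, 7 rose and 0 fell. Without replicate 2 of spermidine+NaCl each of these families had 1 higher. The catalytic subunit A of the V-type ATPase (Os02g0175400) had 33.6, 38.7 and 41.2 FPKM with spermidine+NaCl, against 17.2, 22.7 and 25.8 FPKM in untreated roots (log2 change 0.78 ± 0.15, adjusted p = 0.0154). Its mean was 33.9 ± 3.82 FPKM with NaCl alone. That call was lost without replicate 2 (adjusted p = 0.0608) or 3 (0.0529) of spermidine+NaCl. The proton pumps list had 2 higher without replicate 2 of spermidine+NaCl, 5 without untreated replicate 1, 7 without untreated replicate 2, 8 without replicate 3 of either group, 13 without replicate 1 of spermidine+NaCl and 3 in the fit of the 6 libraries alone.

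Aquaporins, the water channels, had 7 higher and 0 lower of 37 in the plasma membrane (PIP) class, where NaCl alone gave 1 and 5, 2 and 0 of 11 in the tonoplast (TIP) class and 4 and 3 of 26 in the NIP class. Over all rice-hit unigenes NaCl alone gave 12.4% higher and 14.7% lower, and the median log2 change of the PIP class with it was -0.03. Without any single library the PIP class had 5 or 6 higher, the TIP class 2, and the NIP class 0 to 3 higher and 0 to 2 lower. The tonoplast aquaporin TIP2-1 had 292, 311 and 349 FPKM with spermidine+NaCl, against 126, 139 and 128 FPKM in untreated roots. The groups were well separated, with a log2 change of 1.26 ± 0.15 (adjusted p = 0.00235), and the means were 271 ± 66.8 FPKM with NaCl alone and 174 ± 9.01 with spermidine alone. NIP2-1, which takes up silicon in rice, had 6.11, 10.2 and 13.7 FPKM with spermidine+NaCl, against 21.8, 20.3 and 17.7 FPKM in untreated roots (log2 change -0.98 ± 0.23, adjusted p = 0.0394), and 0.88 ± 0.32 FPKM with NaCl alone. The NIP2-1 call was lost in 5 of the 6 fits with a library left out (adjusted p up to 0.14). The aquaporins list had 7 to 10 higher with any single library left out, with 7 without replicate 2 of spermidine+NaCl and without untreated replicate 1, 8 without replicate 3 of spermidine+NaCl and without untreated replicate 2, and 3 in the fit of the 6 libraries alone.

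Sodium and potassium transport had 1 higher and 2 lower of 89 (3.37% called, against 4.54% over all rice-hit unigenes). AKT1, a channel for potassium uptake, chosen after its values were seen, had 144, 157 and 166 FPKM with spermidine+NaCl, against 300.2, 288 and 267 FPKM in untreated roots (log2 change -0.87 ± 0.09, adjusted p = 0.00145), and 126 ± 14.5 FPKM with NaCl alone. A cation/H+ antiporter described as CHX19 had 187, 251 and 261 FPKM with spermidine+NaCl, against 378, 480.2 and 421 FPKM in untreated roots (log2 change -0.88 ± 0.18, adjusted p = 0.0199), a call lost in 4 of the 6 fits with a library left out (adjusted p up to 0.0772). The one higher member was a vacuolar exchanger of the NHX2 type (Os07g0666900), at 9, 8.58 and 8.99 FPKM with spermidine+NaCl and 4.27, 5 and 5.63 FPKM in untreated roots (log2 change 0.73 ± 0.14, adjusted p = 0.0183), likewise lost in 4 of 6 (adjusted p up to 0.0704).

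The best known sodium transporters were not called. HKT8, which retrieves sodium from the xylem, had 28.7, 20.9 and 20.1 FPKM with spermidine+NaCl, against 34.0, 18.7 and 23.4 FPKM in untreated roots, and the groups overlapped (log2 change -0.10 ± 0.20, adjusted p = 0.855). Its mean with NaCl alone was 14 ± 0.877 FPKM. The more abundant exchanger of the NHX7 type (Os12g0641100), known in Arabidopsis as SOS1 for sodium export, had 75.1, 66.8 and 68.2 FPKM with spermidine+NaCl, against 72.1, 70.7 and 72.8 FPKM in untreated roots (adjusted p = 0.816). NHX1, a vacuolar exchanger, had 13.8, 16.0 and 19.9 FPKM with spermidine+NaCl, against 16.7, 20.6 and 22.1 FPKM in untreated roots (adjusted p = 0.614). These comparisons do not show that the levels were equal.

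Proline, an osmolyte that builds up in salted plants, is made by P5CS and broken down by proline dehydrogenase. A called unigene of each enzyme is described here, and the unigenes of these enzymes were not counted apart from the osmolytes list. P5CS2 had 5.84, 7.43 and 7.02 FPKM with spermidine+NaCl, against 2.11, 2.68 and 3.37 FPKM in untreated roots (log2 change 1.07 ± 0.15, adjusted p = 0.00583, but 0.0696 when only the 6 libraries were fitted), with 7.13 ± 0.56 FPKM with NaCl alone. Proline dehydrogenase 2 had 17.7, 14.1 and 15.1 FPKM with spermidine+NaCl, against 34.0, 42.8 and 39.1 FPKM in untreated roots (log2 change -1.25 ± 0.16, adjusted p = 0.00385). With NaCl alone its mean was 75.2 ± 8.43 FPKM, called higher than in untreated roots (adjusted p = 0.00206), and spermidine+NaCl was lower than NaCl alone (log2 difference -2.20, adjusted p = 2.15e-05). This unigene was thus lower than in untreated roots in the combined treatment and higher in salt alone. The osmolytes list as a whole had 2 higher and 4 lower of 80.

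A protein named for its response to salt fell. The salt stress-induced protein SALT, a lectin first described in salted rice, had 95.2, 114 and 144 FPKM with spermidine+NaCl, against 406, 433 and 467 FPKM in untreated roots (log2 change -1.90 ± 0.21, adjusted p = 0.00226), and 131 ± 35.7 FPKM with NaCl alone. LEA, dehydrin and salt-induced proteins, many of them protectants of drying cells, had 2 higher and 4 lower of 30.

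Abscisic acid genes had 0 higher and 4 lower of 59 (6.78% called, against 4.54% over all rice-hit unigenes). Of the 4 lower, 3 were among the 11 receptor unigenes. The remaining 55 were not called, and the median log2 change of the list was -0.0016. NaCl alone gave 20 higher and 13 lower in the list, and 0 and 7 among the receptors. Without untreated replicate 1 the list had 1 lower, a receptor, and without any other single library it had 2 or 3 lower, 2 of them receptors. PYL5, such a receptor, had 50.6, 54.4 and 60.4 FPKM with spermidine+NaCl, against 107, 92.7 and 106 FPKM in untreated roots (log2 change -0.87 ± 0.11, adjusted p = 0.00315). Its level with NaCl alone, 23.7 ± 3.30 FPKM, was below that with spermidine+NaCl (log2 difference of spermidine+NaCl from NaCl 1.19, adjusted p = 7.46e-05). The most abundant receptor unigene, of the PYL4 type, had 501, 477 and 576 FPKM with spermidine+NaCl, against 789, 719 and 749 FPKM in untreated roots (log2 change -0.54 ± 0.11, adjusted p = 0.0191), and 250.4 ± 31.2 FPKM with NaCl alone. The PYL4 call was lost without replicate 2 of spermidine+NaCl (adjusted p = 0.0835), untreated replicate 1 (0.0847) or untreated replicate 3 (0.0524). Both receptors were chosen after their values were seen.

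Polyamine genes had 5 higher and 7 lower of 62, with few calls among the enzymes of synthesis, 1 higher and 0 lower of 19. Arginine decarboxylase 1, which opens the arginine route, had 102, 72.8 and 87.4 FPKM with spermidine+NaCl, against 106, 91.7 and 94.9 FPKM in untreated roots (adjusted p = 0.519), while NaCl alone gave 184 ± 8.08 FPKM. An abundant S-adenosylmethionine decarboxylase, which supplies the aminopropyl groups of spermidine, had 127, 63.0 and 75.1 FPKM with spermidine+NaCl, against 65.8, 72.9 and 63.7 FPKM in untreated roots (adjusted p = 0.466), and 274 ± 17.1 FPKM with NaCl alone. As with the stress regulators, replicate 1 was the high library of the treated group. Unigenes of this enzyme differed in this. The most abundant over the 6 libraries had 157, 154 and 157 FPKM with spermidine+NaCl, against 179, 167 and 174 FPKM in untreated roots (adjusted p = 0.333), and 143 ± 8.44 FPKM with NaCl alone. Spermidine synthase 1 had 100.1, 103 and 101 FPKM with spermidine+NaCl, against 79.1, 87.4 and 91.0 FPKM in untreated roots, groups that did not overlap and were not called (log2 change 0.24 ± 0.08, adjusted p = 0.146). Ornithine decarboxylase, chosen after its values were seen, was the one synthesis enzyme called, at 10.3, 8.62 and 8.15 FPKM with spermidine+NaCl and 3.09, 5.88 and 4.25 FPKM in untreated roots (log2 change 0.92 ± 0.17, adjusted p = 0.0155, but 0.0542 without replicate 2 of spermidine+NaCl). Its mean was 23.9 ± 2.22 FPKM with NaCl alone, and spermidine+NaCl was below that (log2 difference -1.31, adjusted p = 0.000693).

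Amine oxidases, which break polyamines down and release hydrogen peroxide, had 3 higher and 3 lower of 15. Primary amine oxidase 2 (Os06g0338700) had 0.85, 0.83 and 1.42 FPKM with spermidine+NaCl, against 5.53, 7.58 and 5.6 FPKM in untreated roots (log2 change -1.83 ± 0.19, adjusted p = 0.00142). Its mean was 1.27 ± 0.468 FPKM with NaCl alone (log2 difference of spermidine+NaCl from NaCl -0.15, adjusted p = 0.647) and 7.88 ± 0.475 FPKM with spermidine alone. Another primary amine oxidase was called higher, at 46.5, 38.5 and 37.6 FPKM with spermidine+NaCl and 26.8, 30.1 and 25.4 FPKM in untreated roots (log2 change 0.55 ± 0.11, adjusted p = 0.0207). That call was lost in 3 of the 6 fits with a library left out (adjusted p up to 0.0694). Polyamine oxidase 4, the most abundant oxidase of the wider polyamine list, is not among the 15 amine oxidases counted here. It had 276, 239 and 286 FPKM with spermidine+NaCl, against 387, 330.4 and 372 FPKM in untreated roots (log2 change -0.44 ± 0.10, adjusted p = 0.0291, with adjusted p up to 0.112 in 3 fits with a library left out). Polyamine oxidase 2, also of the polyamine list, had 42.5, 43.8 and 46.9 FPKM with spermidine+NaCl, against 32.7, 35.7 and 32.3 FPKM in untreated roots (log2 change 0.39 ± 0.07, adjusted p = 0.0131, but 0.0537 when only the 6 libraries were fitted). The list of polyamine genes had 1 to 5 higher and 3 to 9 lower with any single library left out, fewest higher without replicate 2 of spermidine+NaCl and fewest lower without untreated replicate 1.

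Among transcription factors, a few stood well above untreated roots. MADS23 (Os06g0347700), a MADS-box factor, had 26.5, 31.4 and 33.1 FPKM with spermidine+NaCl, against 2.27, 1.32 and 4.68 FPKM in untreated roots (log2 change 3.15 ± 0.28, adjusted p = 0.000711), and 27.6 ± 4.25 FPKM with NaCl alone. ILI7, an atypical helix-loop-helix protein of a rice family linked to brassinosteroid growth responses, had 44.3, 32.6 and 42.9 FPKM with spermidine+NaCl, against 2.59, 5.49 and 6.13 FPKM in untreated roots (log2 change 2.88 ± 0.24, adjusted p = 0.000535). It was above NaCl alone too, at 16.0 ± 2.27 FPKM there (log2 difference 1.26, adjusted p = 0.00545). bHLH82 had 21.4, 23.4 and 17.5 FPKM with spermidine+NaCl, against 4.77, 4.84 and 5.93 FPKM in untreated roots (log2 change 1.81 ± 0.23, adjusted p = 0.00351), and WRKY56 had 17.5, 15.1 and 13.2 FPKM with spermidine+NaCl, against 5.93, 6.53 and 4.58 FPKM in untreated roots (log2 change 1.28 ± 0.18, adjusted p = 0.00557).

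MYB factors had 2 higher and 10 lower of 161, and 4 lower without replicate 2 of spermidine+NaCl. MYB36, whose Arabidopsis homolog directs the endodermis to form the Casparian strip, had 61.0, 86.9 and 115 FPKM with spermidine+NaCl, against 153, 222 and 174 FPKM in untreated roots (log2 change -1.08 ± 0.20, adjusted p = 0.0139). With NaCl alone it had 26.5 ± 1.18 FPKM. The MYB36 call was lost without replicate 2 of spermidine+NaCl (adjusted p = 0.0547) and without untreated replicate 2 (0.0522). AP2/ERF and DREB factors had 1 higher and 6 lower of 188 (4 to 9 lower without any single library), bHLH factors 4 and 3 of 164, and bZIP factors 0 and 2 of 61. Of these lists 3.72%, 4.27% and 3.28% were called, in the same order, against 4.54% over all rice-hit unigenes. An AP2-like factor described as ANT, which promotes organ growth in Arabidopsis, was listed at 0 in all libraries with spermidine+NaCl and had 10.7, 5.32 and 5.35 FPKM in untreated roots (adjusted p = 0.00139). It was also listed at 0 in every library with NaCl or spermidine alone. This factor, highest in untreated replicate 1, is thus one of the unigenes listed at 0 throughout a group, where a listed 0 can be a failed estimate.

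Hormone genes of growth were called mainly downward for cytokinin. The cytokinin list had 0 higher and 11 lower of 88 with a median log2 change of -0.19, against 11 and 36 and a median of -0.36 with NaCl alone, and type ORR response regulators made up 6 of the 11. LOGL3, an enzyme that releases active cytokinin, had 10.6, 10.2 and 9.68 FPKM with spermidine+NaCl, against 25.6, 24.0 and 20.6 FPKM in untreated roots (log2 change -1.12 ± 0.13, adjusted p = 0.0021), and 27.7 ± 4.70 FPKM with spermidine alone. The cytokinin count was 5 lower without untreated replicate 1, 6 without replicate 2 and 7 without replicate 3 of spermidine+NaCl, 8 to 10 without any other single library, and 6 in the fit of the 6 libraries alone.

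Auxin genes had 9 higher and 7 lower of 218 (7.34% called, against 4.54% over all rice-hit unigenes). They had 3 higher without replicate 2 or 3 of spermidine+NaCl or untreated replicate 1 or 2. Auxin efflux carriers, which move the hormone between cells, had 4 higher and 0 lower of 21, against 2 and 5 with NaCl alone, and 1 to 3 higher without any single library. AIR12, an auxin-induced membrane protein, had 22.8, 29.3 and 25.0 FPKM with spermidine+NaCl, against 6.64, 6.70 and 10.7 FPKM in untreated roots (log2 change 1.59 ± 0.21, adjusted p = 0.00403), above the 12.9 ± 1.83 FPKM with NaCl alone (log2 difference 0.94, adjusted p = 0.0127). SAUR41, of an auxin-responsive family, had 0.86, 1.98 and 2.72 FPKM with spermidine+NaCl, against 9.86, 9.14 and 5.75 FPKM in untreated roots (log2 change -1.72 ± 0.27, adjusted p = 0.00839, but 0.0935 when only the 6 libraries were fitted). Gibberellin and ethylene synthesis had 4 higher and 3 lower of 77, and 0 to 5 higher and 0 to 4 lower without any single library, with 0 and 0 without replicate 2 of spermidine+NaCl.

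Phosphate genes had 5 higher and 7 lower of 98. Phosphate uptake transporters had 4 higher and 2 lower of 14, and purple acid phosphatases, which free phosphate outside the cell or recycle it, 0 and 3 of 44. Phosphate transporter 1-4 had 16.6, 23.2 and 18.5 FPKM with spermidine+NaCl, against 4.21, 5.34 and 5.22 FPKM in untreated roots (log2 change 1.78 ± 0.17, adjusted p = 0.00112). Purple acid phosphatase 2 (Os12g0637400) had 2.55, 4.15 and 6.32 FPKM with spermidine+NaCl, against 38.7, 28.9 and 22.8 FPKM in untreated roots (log2 change -2.57 ± 0.28, adjusted p = 0.00183), and 5.34 ± 1.09 FPKM with NaCl alone.

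Iron and zinc genes had 1 higher and 8 lower of 139, against 5 and 56 with NaCl alone. This list also takes in efflux transporters of the TOM1 type and vacuolar iron transporters. The one higher member, nicotianamine aminotransferase A, a step in making the iron chelators that grasses secrete, had 18.5, 19.9 and 20.6 FPKM with spermidine+NaCl, against 10.5, 11.2 and 11.7 FPKM in untreated roots (log2 change 0.77 ± 0.08, adjusted p = 0.00189). The count of lower members was 1 without replicate 2 of spermidine+NaCl, 3, 2 and 4 without untreated replicates 1, 2 and 3, and 8 without either other library. Nitrogen genes had 11 higher and 14 lower of 309 (8.09% called, against 4.54% over all rice-hit unigenes). Without replicate 2 of spermidine+NaCl they had 5 and 5, without replicate 3 of it 5 and 8, and without untreated replicate 1 they had 4 and 7. NPF5.10 (Os01g0871600), of a nitrate and peptide transporter family, had 9.08, 6.59 and 9.95 FPKM with spermidine+NaCl, against 21.5, 23.6 and 27.8 FPKM in untreated roots (log2 change -1.42 ± 0.16, adjusted p = 0.00235), and its means were 3.45 ± 0.671 FPKM with NaCl alone and 9.09 ± 0.627 with spermidine alone. Sugar breakdown and transport had 10 higher and 4 lower of 126. It had 2 higher without replicate 2 of spermidine+NaCl or untreated replicate 1, and 5 without replicate 3 of spermidine+NaCl or untreated replicate 2. SWEET1a, a sugar carrier, had 40.4, 41.1 and 37.5 FPKM with spermidine+NaCl, against 15.1, 16.7 and 17.3 FPKM in untreated roots (log2 change 1.23 ± 0.14, adjusted p = 0.00252).

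Detoxification and defence genes were mixed. Glutathione S-transferases, which attach glutathione to reactive compounds, had 12 higher and 1 lower of 116, against 37 and 5 with NaCl alone, and 5 to 11 higher with any single library left out, with 5 without untreated replicate 1 and 6 without replicate 2 of spermidine+NaCl. GSTU6 had 112, 96.3 and 60.5 FPKM with spermidine+NaCl, against 24.1, 23.4 and 24.9 FPKM in untreated roots (log2 change 1.81 ± 0.26, adjusted p = 0.00594). Catalase A, which breaks down hydrogen peroxide, had 350, 320 and 304 FPKM with spermidine+NaCl, against 189, 162 and 164 FPKM in untreated roots (log2 change 0.92 ± 0.10, adjusted p = 0.00195), and 289.7 ± 20.03 FPKM with NaCl alone. It was among 4 antioxidant enzymes called higher and 1 lower of 89 (5.62% called, against 4.54% over all rice-hit unigenes).

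Pathogenesis-related proteins had 19 higher and 12 lower of 300, and 4 higher without replicate 2 and 9 without replicate 3 of spermidine+NaCl, 5 without untreated replicate 1 and 10 without untreated replicate 2. Chitinases, which cut fungal walls, had 6 higher and 0 lower of 36, and 2 higher without replicate 2 of spermidine+NaCl and 3 without untreated replicate 1. Diterpenoid phytoalexins, the antimicrobial compounds of rice, had 3 higher and 3 lower of 35 in the genes described for them. That was 17.1% called, against 4.54% over all rice-hit unigenes, with 1 or 2 higher and 1 to 3 lower without any single library. Of the chitinases, acidic endochitinase had 23.5, 38.5 and 29.3 FPKM with spermidine+NaCl, against 5.12, 7.21 and 6.38 FPKM in untreated roots (log2 change 2.10 ± 0.17, adjusted p = 0.000535). PR-1 type proteins had 3 higher and 5 lower of 22, and PRB1-2 had 9.18, 7.43 and 4.92 FPKM with spermidine+NaCl, against 25.0, 34.0 and 27.8 FPKM in untreated roots (log2 change -1.90 ± 0.22, adjusted p = 0.00258). With NaCl alone PRB1-2 was higher than in untreated roots, at 51.9 ± 10.1 FPKM (adjusted p = 0.0246), and spermidine+NaCl was below NaCl alone (log2 difference -2.71, adjusted p = 4.19e-05). Xylanase inhibitor protein 2 (Os04g0347200), of a group that blocks wall-degrading enzymes of microbes, had 39.8, 58.4 and 51.7 FPKM with spermidine+NaCl, against 4.57, 4.64 and 9.29 FPKM in untreated roots (log2 change 2.87 ± 0.33, adjusted p = 0.00235).

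Some of the largest calls rested on unigenes listed at 0 throughout a group. Of the unigenes called lower, 11 were at 0 in every library with spermidine+NaCl, and 9 of these were highest in untreated replicate 1. A GDSL esterase (Os01g0216000) was listed at 0 in all 3 treated libraries and had 40.4, 13.3 and 6.68 FPKM in untreated roots, a call lost in 5 of the 6 fits with a library left out (adjusted p up to 0.108). Of the unigenes called higher, 14 were at 0 in every untreated library, and 7 of these were highest in replicate 2 with spermidine+NaCl. Heat shock protein 81-2, a chaperone, had 1.53, 54.1 and 9.05 FPKM with spermidine+NaCl and was listed at 0 in all untreated libraries (adjusted p = 0.0375, and up to 0.121 in the 4 fits with a library left out that lost the call). No fold is given for such unigenes, since a listed 0 can be a failed estimate.

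Most lists of growth, housekeeping and heat or low-oxygen responses had a smaller share called than the 4.54% over all rice-hit unigenes. The share was 0.694% for cell cycle and DNA replication, 3.125% for histones and 2.62% for cytosolic ribosomal proteins. Heat stress factors and heat shock proteins had 1.91% called, and fermentation and hemoglobins 7.41%, above the share over all. Cell cycle and DNA replication, a list that also takes in RNA-directed DNA polymerase homologs, had 0 higher and 2 lower of 288, and histones 0 and 1 of 32, where NaCl alone had 0 and 15. Histone H1 (Os06g0130800), which packs chromatin, had 192, 161 and 141 FPKM with spermidine+NaCl, against 324, 281 and 280 FPKM in untreated roots (log2 change -0.85 ± 0.11, adjusted p = 0.00353, but 0.0595 when only the 6 libraries were fitted), and 87.4 ± 3.30 FPKM with NaCl alone. Cytosolic ribosomal proteins had 8 higher and 0 lower of 305, and 0 higher without untreated replicate 1 or 2. Heat stress factors and heat shock proteins had 1 higher and 2 lower of 157, and fermentation and hemoglobins 1 and 1 of 27. Of the 35 pericycle and lateral root markers 0 were called, of the 4 root cap markers 0, and of the 107 unigenes of organelle proteins, used as a sign of RNA quality, 1 was higher and 0 lower.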

How the data were processed

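The deposited table holds FPKM values for 12 libraries. The submitters' processing notes name CASAVA 1.8, RSEM and Bowtie2, with no role, and the assembly is not given in the sources used here. Per the labels, RNA was poly-A selected. Values were tested as log2(FPKM + 1), pseudocount 1, for the 65836 unigenes averaging 1 FPKM or more, with limma 3.58.1 in R 4.3.3. The fit had 4 group means over all 12 libraries and a variance trend. Two-sided p-values were adjusted by Benjamini-Hochberg over every unigene tested, and only Oryza hits are reported. All columns were used.

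The members, lists and tests were chosen with earlier results of these data known. Named unigenes are some of the 120 given by a rule: the 10 largest called rises and falls with at least 5 FPKM in a group, the largest called change per list and direction, the most abundant member of a list with none, polyamine unigenes of at least 20 FPKM and HKT, SOS1 and NHX transporters of at least 5 FPKM. A further 24 were chosen after their values were seen. The fit was tested on simulated data. Alternatives were other pseudocounts, filters and scalings, the 6 libraries alone, a replicate block and each library left out. No genome or sequence was used here, and positions are left out.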

Additional observations from a re-analysis of the deposited data

Results flagged for a closer look

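Unigenes with a best hit outside Oryza, or with no hit, belong to no comparison above, and some were called higher with spermidine+NaCl than in untreated roots. Among those with a hit in another organism, 283 of 7318 were called higher (3.87%) and 628 lower (8.58%). The summed level of the 283 was 8313, 15714 and 11336 FPKM with spermidine+NaCl, against 4856, 5332 and 5363 FPKM in untreated roots. Among those with no hit, 191 of 17027 were called higher (1.12%) and 553 lower (3.25%), and the 191 summed to 7666, 9805 and 8947 FPKM with spermidine+NaCl, against 3735, 4119 and 4060 FPKM in untreated roots. The sums are over unigenes selected for being higher, so the difference between groups is a description. Groups of 3 libraries were not tested for single outlying libraries.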

How the results depend on the processing

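The counts of rice-hit unigenes called higher and lower, 1095 and 788, were 314 and 248 in a fit of the 6 libraries alone and 389 and 261 with a log2 change of at least 1 required. With each library left out they ranged from 418 to 979 higher and from 347 to 763 lower. They stayed within 1.5 times the reported counts with a pseudocount of 0.1, no filter, a mean of at least 5 FPKM, rice hits alone in the fit, median-ratio, rice-total and quantile scaling and a replicate block. The balance of directions depended on the scaling. Of the called unigenes, 58.2% were higher as reported, 50.4% with median-ratio scaling (905 and 891) and 51.7% with rice-total scaling (907 and 846). The block gave 1004 and 690, and replicate numbers did not pair the samples (r = 0.0852, -0.0214 and -0.0175 between same-numbered libraries). No called unigene changed direction under any of these. Of 144 unigenes examined singly, 102 were called, 51 of them without each library in turn and 35 under every refit. The direction of 12 unigenes turned in at least 1 refit, none of which was called, and 10 of these are not described above (reported log2 changes of at most 0.3 in size). With each library left out, the log2 change of HKT8 ranged from -0.29 to 0.13 and of trehalose-phosphate phosphatase 1 from -0.14 to 0.43. The cause was not tested. Depth is unknown, so no limit from it can be given for low unigenes.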

Other observations

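Other groups of root genes moved that the lists did not cover. They were chosen after their values were seen, and the counts over them are descriptions. Silicon efflux transporters, which load silicon toward the shoot in rice, had 0 higher and 5 lower of 15, against 1 and 8 with NaCl alone, and 2 lower without replicate 2 of spermidine+NaCl or untreated replicate 1. LSI2 had 665, 745 and 880.2 FPKM with spermidine+NaCl, against 1113, 1568 and 1334 FPKM in untreated roots (log2 change -0.80 ± 0.18, adjusted p = 0.0291), a call lost in 4 of the 6 fits with a library left out (adjusted p up to 0.109). Metallothioneins, small metal-binding proteins, had 0 higher and 4 lower of 22. Metallothionein-like protein 4B had 1110, 1027 and 1470 FPKM with spermidine+NaCl, against 2813, 5934 and 5087 FPKM in untreated roots (log2 change -1.89 ± 0.28, adjusted p = 0.00686, but 0.131 when only the 6 libraries were fitted). All 3 treated libraries were below all untreated ones in both genes.

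S-type anion channels, which release chloride and nitrate, had 1 higher and 6 lower of 19. SLAH2 (Os11g0274232) had 72.3, 75.6 and 71.8 FPKM with spermidine+NaCl, against 160, 153 and 157 FPKM in untreated roots, with a log2 change of -1.09 ± 0.07 (adjusted p = 0.000201). Its mean was 38.8 ± 3.85 FPKM with NaCl alone (log2 difference of spermidine+NaCl from NaCl 0.90, adjusted p = 4.18e-05). In the other direction, proline-rich proteins of the DC2.15 type, known from cell walls, had 4 higher and 0 lower of 6, and tubulins, the subunits of microtubules, 5 and 0 of 40 (1 to 4 higher without any single library). DC2.15 had 835, 1071 and 1279 FPKM with spermidine+NaCl, against 368, 399 and 478 FPKM in untreated roots (log2 change 1.34 ± 0.15, adjusted p = 0.00195, but 0.0548 when only the 6 libraries were fitted). A lipid-transfer protein-like unigene had 345, 323 and 359 FPKM with spermidine+NaCl, against 46.1, 81.6 and 105 FPKM in untreated roots (log2 change 2.20 ± 0.25, adjusted p = 0.00239). UDP-glucose dehydrogenases, which make precursors of pectin and hemicellulose, had 4 higher and 0 lower of 8, against 3 and 1 with NaCl alone, but 0 higher without replicate 2 or 3 of spermidine+NaCl or untreated replicate 1 or 2.

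Unigenes outside the rice hits were called lower as well. The 628 unigenes with a hit in another organism that were called lower summed to 637, 555 and 857 FPKM with spermidine+NaCl, against 24933, 11445 and 11259 FPKM in untreated roots. The 553 with no hit that were called lower summed to 6284, 5580.1 and 5818 FPKM with spermidine+NaCl, against 29101, 18810.2 and 18023 FPKM in untreated roots. In both sums untreated replicate 1 was the highest library.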
